A study of Homo sapiens with 12 samples.

Results

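The comparison described here sets KYSE150 cells carrying a form of TFAP2β that lacks its IDR3 against KYSE150 cells carrying GFP alone. Its members were chosen by the labels, as the 3 libraries of the group GFP-TFAP2β-ΔIDR3 and the 3 libraries of the group GFP, which are 6 of the 12 libraries of the series, and all genes of the count table. ΔIDR3 is written dIDR3 below. KYSE150 is an established human line of esophageal squamous cell carcinoma, and RNA was sequenced from 4 groups of 3 libraries. The other groups carried GFP-tagged TFAP2β without a change named in the labels (WT) and a form labelled Mut_IDR3. The series calls both altered forms deficient in liquid-liquid phase separation. All 4 groups therefore carried GFP, alone or fused to TFAP2β, and the labels name no treatment, dose or time. They do not say which residues were removed, which promoter drove the constructs, or whether the cells were 1 clone or a pool. They also do not say whether replicates were separate cultures, so a p-value reflects the spread among the libraries alone, and that spread may be technical.

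AP-2 factors are transcription factors that bind GC-rich DNA as dimers and act in the development of the neural crest, the skin and other epithelia. An intrinsically disordered region (IDR) is a stretch of protein without a fixed fold, and such regions can take part in the gathering of transcription factors and coactivators into condensates. Esophageal squamous carcinoma cells share much of their gene expression with the basal layer of stratified epithelium, which is marked by keratins such as KRT5 and KRT14 and by the factor TP63.

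TFAP2B, the gene carried by the construct (ENSG00000008196, GRCh38 chromosome 6, 50818723 to 50847613, plus strand), was at 0, 0.279 and 0.0924 CPM in the GFP libraries and 739, 742 and 632 CPM in the dIDR3 libraries. Levels are given in CPM, read counts scaled to the effective size of each library. Every dIDR3 library lay far above every GFP library, and the log2 fold change was 12.50 (SE 0.24, edgeR adjusted p = 8.58e-14), with only 13 counts behind the GFP value. It was 13.64 without GFP replicate 2 and 11.95 without GFP replicate 1, so the size of the fold is known less well than this SE states. The counts cannot tell the construct's RNA from RNA of the cells' own TFAP2B gene. The level was 280.3 ± 45.6 CPM (SD, n = 3) with WT and 702 ± 25.9 CPM with Mut_IDR3, so that dIDR3 and WT cells also differed in the amount of TFAP2B RNA. TFAP2A, a relative of TFAP2B made by squamous cells, was at 59.7 ± 1.35 CPM with GFP and 52.4 ± 2.96 CPM with dIDR3, and its log2 fold change was -0.19 (edgeR adjusted p = 0.0376). That call was lost with the replicate number in the model and when GFP replicate 1, 2 or 3 or dIDR3 replicate 2 or 3 was left out, with adjusted p between 0.00246 and 0.102 over the alternatives. TFAP2C (log2 fold change 0.20, edgeR adjusted p = 0.106) and ZNF131 (-0.04, adjusted p = 0.801) did not pass the test.

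The GFP libraries held 31.9 M to 42.2 M counts and the dIDR3 libraries 37.5 M to 40.6 M. Mitochondrially encoded mRNAs took 10.3 ± 0.408% of counts with GFP and 7.72 ± 0.0634% with dIDR3 (SD, n = 3 each). In bulk RNA, fewer cells of a type and less RNA per cell cannot be told apart. All 12 squamous epithelial markers were detected, with a summed level of 5761 to 6006 CPM in the GFP libraries and 5020 to 5288 CPM in the dIDR3 libraries. The summed level of 11 leukocyte markers was 70.2 to 75.4 CPM with GFP and 50.4 to 51.5 CPM with dIDR3. CD68 alone made up nearly all of it, with means of 71.7 and 49.6 CPM, and PTPRC, CD3D, MS4A1 and LYZ were among those that had no counts in these 6 libraries. The sum for 11 fibroblast markers was 15.6 to 16.7 CPM with GFP and 11.9 to 14.9 CPM with dIDR3, with no counts of PDGFRA, THY1 and FAP. For 7 endothelial markers it was at most 1.89 CPM in any of the 6, with no counts of PECAM1, KDR, TEK and EMCN. With mitochondrially encoded mRNAs left out of the scaling, 95.6% of the calls given below were still made in the same direction and 0 in the other. Beyond this scaling, the part of the marker and mitochondrial differences in the results below was not tested. The fold change had a Spearman correlation of 0.194 with the GC content of the transcript across 12724 genes, a description only because genes are not replicates. With a GC trend removed from each library, 84.5% of the calls given below were still made in the same direction and 0 in the other.

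The question of the comparison is which genes differ once TFAP2β without IDR3 is present. Of 14792 genes tested, 2309 were higher (15.6%) and 1985 lower (13.4%) with dIDR3, so that 29% were called at an edgeR adjusted p under 0.05. The direction with more calls depended on the setting, with 2011 higher and 2280 lower under upper-quartile scaling, 2122 and 2156 under TMM without mitochondrially encoded mRNAs, and 2279 and 2384 with the GC trend removed. Most of the differences were small. The median absolute log2 fold change of the called genes was 0.41, and 3172 of them (73.9%) changed by less than 1.5-fold. Changes of at least 2-fold were called for 443 genes (2.99%), of which 136 were higher (0.919%) and 307 lower (2.08%). The GFP and dIDR3 libraries did not overlap at 6947 genes (47%). The median log2 fold change of all genes tested was -0.02, and the medians of gene lists below are to be read beside it. The counts of called members in those lists are to be read beside the 15.6% called higher and 13.4% called lower over all genes.

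**Figure D1:**
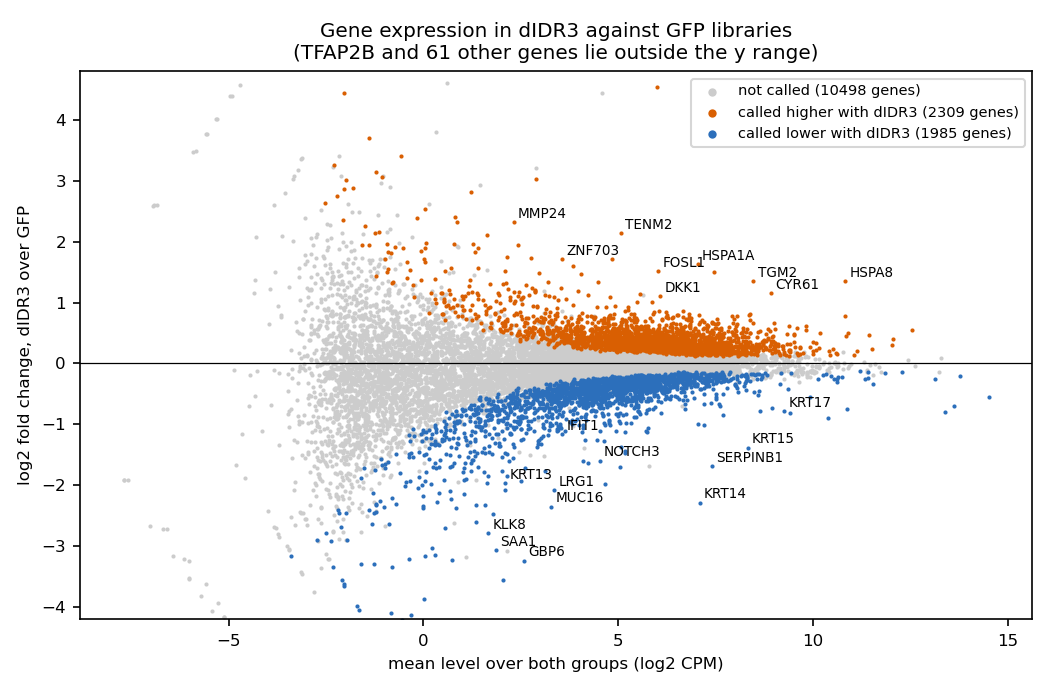
Each point is a gene tested, with its mean level over the GFP and dIDR3 libraries on the x axis (log2 CPM) and the log2 fold change of dIDR3 over GFP on the y axis. Orange points are the 2309 genes called higher, blue points the 1985 called lower and grey points the genes not called. HSPA8 and TENM2 lie high among the orange points, and KRT14 and GBP6 low among the blue ones.

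Several Hsp70 chaperones and their cochaperones were higher with dIDR3, while other heat shock genes were not called. These chaperones refold damaged proteins, and heat shock factor HSF1 switches many of them on by binding repeats of the short element nGAAn in alternating orientation. HSPA8 is the constitutive Hsp70 chaperone of the cytosol. Its promoter holds 3 repeats of the element in a row, TTC, GAA and TTC or GAA, TTC and GAA with 2 free bases between neighbours (each the reverse complement of the other), at bases -230 and -55 counted from the start of the gene. It is shown because HSPA8 had the lowest adjusted p of the called heat shock genes whose promoter did so. The 250 bases before the start (RefSeq, GRCh38.p14, chr11:123062137-123062386, minus strand) read as follows, with the element in capitals.
HSPA8: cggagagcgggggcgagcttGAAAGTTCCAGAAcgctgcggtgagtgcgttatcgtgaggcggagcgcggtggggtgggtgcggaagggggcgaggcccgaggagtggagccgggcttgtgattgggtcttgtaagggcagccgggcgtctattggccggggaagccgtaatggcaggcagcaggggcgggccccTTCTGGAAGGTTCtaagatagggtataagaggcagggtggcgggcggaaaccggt
In these windows the element was found in 0.441% of all 35116 promoters of the table, in 6 of 27 tested heat shock genes with a promoter in the table and in 4 of the 16 of them that were called higher. It was also in 2 of the 11 that were not called, HSPD1 among these, and HSPA1A, HSPA1B, HSPA2, DNAJA1, DNAJB1 and BAG1, which rose, had no match in the window. A match describes letters and not a bound site.

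HSPA8 (ENSG00000109971) was at 979, 1043 and 1049.5 CPM in the GFP libraries and 2684, 2566 and 2582 CPM in the dIDR3 libraries. The groups were far apart. The log2 fold change was 1.35 (SE 0.06, edgeR adjusted p = 2.44e-09). HSPA1A, the stress-inducible Hsp70 chaperone, was at 62.95, 67.4 and 61.7 CPM in the GFP libraries and 203, 201 and 193 CPM in the dIDR3 libraries. Its groups did not overlap, and its log2 fold change was 1.64 (SE 0.06, adjusted p = 8.11e-11). HSPA1B, its near-identical neighbour, rose by 1.51 (SE 0.05), but reads of these copies can be assigned to either, so the values of the pair are not separate measurements. HSPA2, a further member of the family, went from 2.03 ± 0.284 to 6.77 ± 0.728 CPM (log2 fold change 1.74). Cochaperones that work with them rose as well. DNAJA1 and DNAJB1, which hand substrates to the Hsp70 chaperones, had log2 fold changes of 0.87 and 0.58, and the nucleotide exchange factor BAG1 one of 1.00.

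Of 30 tested genes of the heat shock list, 17 were called higher, 0 lower and 13 were not called, against 29% called over all genes. The median of the list was 0.21, well below the values of the members just named. HSPD1 and HSPE1, the chaperonin pair of mitochondria, had log2 fold changes of 0.04 (adjusted p = 0.647) and 0.11 (adjusted p = 0.586). HSPB1, a small heat shock protein, was at 884 ± 23.6 CPM with GFP and 842 ± 46.3 CPM with dIDR3 (adjusted p = 0.331). For HSF1 itself the log2 fold change was -0.03 (adjusted p = 0.799). Against Mut_IDR3, 13 of the 30 were called higher in dIDR3 and 0 lower, beside 5.24% higher and 5.54% lower over all genes.

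Most interferon-stimulated effectors were lower with dIDR3, and this list had the largest share of members called lower among the lists with at least 12 tested genes. Interferon-stimulated genes encode antiviral proteins, and many carry the interferon-stimulated response element, to which a complex that holds STAT2 and IRF9 binds. The element was searched as 2 copies of GAAA with 2 free bases between them, on both strands (TTTC on the other). The 3 promoters of 250 bases shown belong to the genes with the lowest adjusted p among the called effectors that held it. All 3 genes were lower, and each promoter holds the element 2 times. They are from RefSeq (GRCh38.p14), IFITM3 at chr11:320861-321110, minus strand, IFIT1 at chr10:89392373-89392622, plus strand and IFIT3 at chr10:89332279-89332528, plus strand, with the element in capitals.
IFITM3: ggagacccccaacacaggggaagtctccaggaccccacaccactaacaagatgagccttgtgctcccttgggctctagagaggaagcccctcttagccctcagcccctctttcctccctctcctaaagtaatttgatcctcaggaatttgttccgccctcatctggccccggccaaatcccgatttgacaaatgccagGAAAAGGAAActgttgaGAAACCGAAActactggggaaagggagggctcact
IFIT1: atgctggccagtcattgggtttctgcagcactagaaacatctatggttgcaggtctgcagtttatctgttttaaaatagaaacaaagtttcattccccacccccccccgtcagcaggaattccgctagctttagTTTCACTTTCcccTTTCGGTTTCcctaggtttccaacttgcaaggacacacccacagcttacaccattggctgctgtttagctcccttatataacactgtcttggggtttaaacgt
IFIT3: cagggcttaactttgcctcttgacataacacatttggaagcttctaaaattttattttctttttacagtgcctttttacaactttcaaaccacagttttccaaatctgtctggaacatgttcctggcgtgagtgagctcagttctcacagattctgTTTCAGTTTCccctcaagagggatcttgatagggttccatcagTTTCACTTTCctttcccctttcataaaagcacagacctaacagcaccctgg
The first base of the element lay at -52 and -35 in IFITM3, -116 and -103 in IFIT1, and -94 and -51 in IFIT3. It was found in 3.02% of all 35116 promoters and in 24 of 39 tested interferon-stimulated genes with a promoter in the table. It stood in 18 of the 27 that were called lower and in 6 of the 12 that were not called. Of the 133 genes with a promoter in the table that were called at least 2-fold lower, 20 held it (15%). Of the 83 called at least 2-fold higher, 1 did (1.2%), against 2.47% of the 10200 tested genes with a promoter. The 133 include interferon-stimulated effectors of this list.

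IFITM3, a membrane protein that blocks the entry of viruses, was at 903, 862 and 816 CPM in the GFP libraries and 517, 466 and 492 CPM in the dIDR3 libraries. The highest dIDR3 library was well below the lowest GFP library, and the log2 fold change was -0.81 (SE 0.05, edgeR adjusted p = 6.52e-08). IFIT1, which binds foreign RNA ends, was at 16.3, 15.1 and 17.5 CPM in the GFP libraries and 6.96, 7.25 and 7.74 CPM in the dIDR3 libraries (log2 fold change -1.16, SE 0.08, adjusted p = 2.71e-07). GBP6, a guanylate-binding protein, had the largest fall among the interferon-stimulated genes that reached a mean of 5 CPM, from 10.1, 12.1 and 10.1 CPM in the GFP libraries to 0.848, 1.299 and 1.26 CPM in the dIDR3 libraries. Its log2 fold change was -3.24 (SE 0.19, adjusted p = 3.21e-08). Falls of more than 1 on the log2 scale were also called for TRIM22 (-2.47), DDX60 (-1.93), IFIT3 (-1.72), OAS1 (-1.36) and OASL (-1.08), all known as antiviral effectors. DHX58, a sensor of viral RNA, had 24 counts over the GFP libraries and 0 over the dIDR3 libraries. With a floor of 3 counts over the group this was at least 8.94-fold lower.

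Of 47 tested interferon-stimulated effectors, 34 were called lower, 0 higher and 13 were not called, with a median log2 fold change of -0.87. Some members, such as HERC5 and RSAD2, were expressed mainly with WT, and 3 had no counts in the GFP or the dIDR3 libraries. With these 3 put at their bound the median was still -0.87. OAS3 was among those not called, at 103 ± 5.47 CPM with GFP and 105 ± 3.26 CPM with dIDR3 (adjusted p = 0.630). Of 21 interferons, receptors and signalling genes, 7 were lower, 1 higher and 13 not called. Members of this second list without counts in the GFP or the dIDR3 libraries could hardly be called. Its share of calls can therefore not be set beside that of the effectors. IRF1, an activator of interferon genes, fell by 0.72 on the log2 scale, IFNGR2, a chain of the interferon gamma receptor, by 0.42 and STAT2 by 0.50. SOCS1, an inhibitor of this pathway, was the member that rose, from 0.245 ± 0.0390 to 0.870 ± 0.126 CPM. The cells with WT showed the opposite direction in the list of effectors. Its median against GFP was 1.39 with WT and -0.41 with Mut_IDR3, and the 3 comparisons share the GFP libraries. In the direct tests, 44 of the 47 were called lower in dIDR3 than in WT and 21 lower than in Mut_IDR3. Over all genes tested the shares called lower were 25% against WT and 5.54% against Mut_IDR3.

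**Figure D2:**
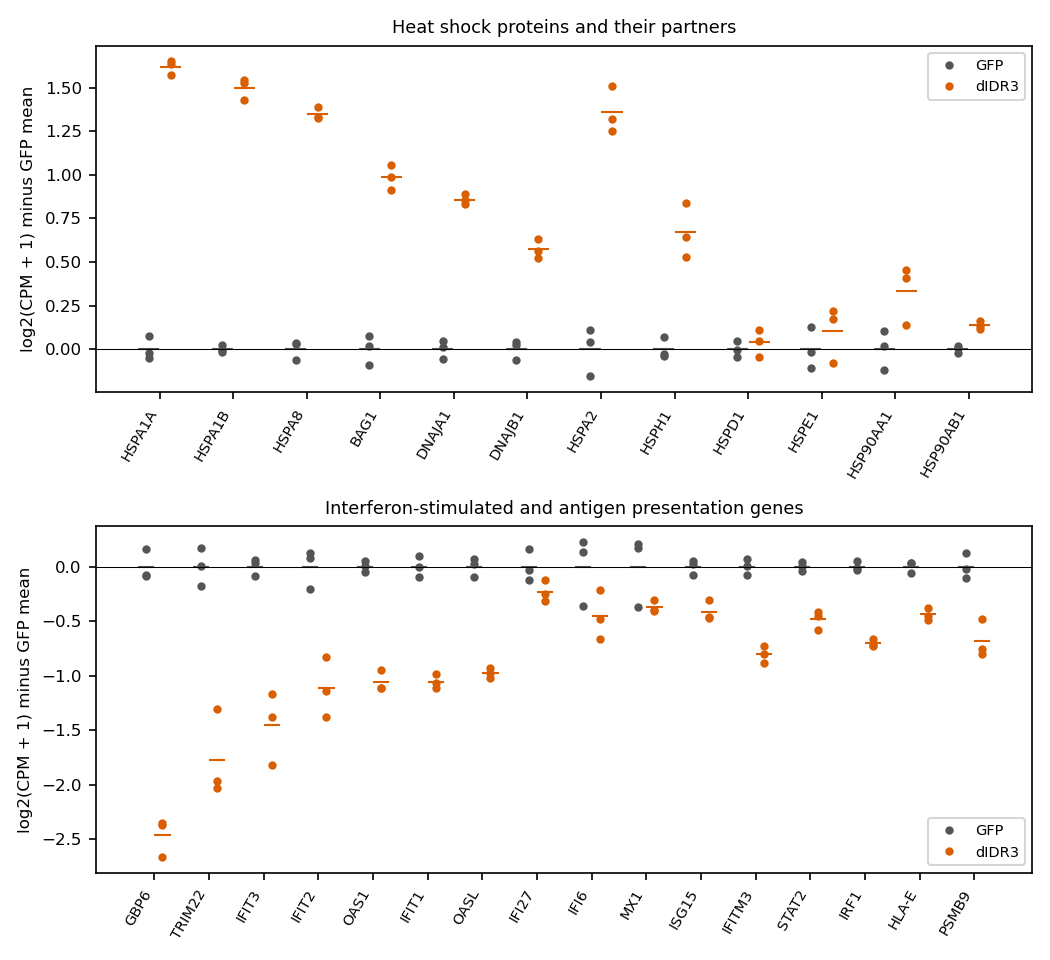
The y axes give log2(CPM + 1) minus the mean of the GFP libraries, with 1 point per library and a line at the mean of each group. In the upper panel the 3 dIDR3 libraries lie above the GFP libraries for HSPA1A, HSPA8 and DNAJA1 and overlap them for HSPD1 and HSPE1. In the lower panel they lie below the GFP libraries for GBP6, IFIT1, IFITM3 and IRF1.

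Antigen presentation by MHC class I depends on the immunoproteasome, peptide transport and the HLA heavy chains. Of 18 tested genes of this pathway 10 were lower, 2 higher and 6 not called, with a median of -0.27. HLA-E was at 365, 364 and 342 CPM in the GFP libraries and 274, 254 and 261 CPM in the dIDR3 libraries (log2 fold change -0.44, edgeR adjusted p = 3.28e-05). The groups did not overlap. HLA-F fell by 0.43, the immunoproteasome subunits PSMB10 and PSMB9 by 0.60 and 0.72, and the peptide-trimming enzyme ERAP2 by 0.83. The 2 members that rose, CALR (0.46) and CANX (0.25), are chaperones of the endoplasmic reticulum that also serve many other proteins. Among 12 chemokines, 4 were lower, 1 higher and 7 not called. The summed level of the listed chemokines was 10.95 to 12.9 CPM in the GFP libraries and 6.64 to 6.9 CPM in the dIDR3 libraries. It was 807 to 927 CPM with WT, so members expressed mainly with WT could hardly be called here. CCL5, which attracts T cells, went from 2.98 ± 0.0622 to 0.574 ± 0.140 CPM (-2.37), and CXCL16 fell by 0.68. CCL22 and CXCL10 had 0 counts in the dIDR3 libraries, with means of 0.425 and 0.0708 CPM in GFP, and the call for CXCL10 was lost in several alternatives, among them with each single library of either group left out (adjusted p up to 0.0921). CXCL2 was the chemokine that rose (1.95).

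Acute phase, complement and S100 genes, which epithelia express in inflammation, had more falls than rises. Of 21 tested, 12 were lower, 1 higher and 8 not called, with a median of -0.58. SAA1, serum amyloid A, was at 5.56, 8.04 and 5.99 CPM in the GFP libraries and 1.07, 0.416 and 0.823 CPM in the dIDR3 libraries, and its log2 fold change was -3.07 (SE 0.27, edgeR adjusted p = 1.72e-06). SAA2 (-3.03) is a near-identical neighbour, so that reads of the pair may be shared. LRG1, a secreted glycoprotein of the acute phase, went from 16.6 ± 1.18 to 3.92 ± 0.319 CPM (-2.08). S100A9 fell by 1.27 and S100A14 by 0.54, and CLU, clusterin, was the 1 member that rose (0.15, adjusted p = 0.0220). The list of NF-kB and inflammatory cytokine genes was split, with 9 higher, 6 lower and 19 not called of 34 and a median of -0.05 that changed sign over the alternatives. In it the cytokine gene IL1B fell from 71.6 ± 4.71 to 33.1 ± 3.58 CPM (-1.11), while NFKBIA, a direct target of NF-kB, was not called (log2 fold change 0.19, adjusted p = 0.0623). IL1RN, the antagonist of the interleukin 1 receptor, also fell (-1.77).

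Several keratins and regulators of the squamous epithelium were lower with dIDR3. KRT14, the type I keratin of basal cells (ENSG00000186847, GRCh38 chromosome 17, 41582279 to 41586921, minus strand), was at 229.7, 226 and 226 CPM in the GFP libraries and 48.5, 46.2 and 45.2 CPM in the dIDR3 libraries. The dIDR3 libraries were close to each other and far below every GFP library, and the log2 fold change was -2.29 (SE 0.06, edgeR adjusted p = 4.46e-12). KRT15, another basal keratin, was at 469.8, 472 and 453 CPM in the GFP libraries and 192, 178 and 164 CPM in the dIDR3 libraries, again without overlap (-1.38, SE 0.06, adjusted p = 9.68e-10). KRT17 fell by 0.79, while KRT5, the partner of KRT14 in the basal filament, was at 3416 ± 70.3 CPM with GFP and 3264 ± 98.5 CPM with dIDR3 (adjusted p = 0.364). KRT14, KRT15 and KRT17 are close in sequence to other keratins and to pseudogenes, and how reads with several places were counted was not given in the sources used here. Of 30 tested basal squamous genes, 14 were lower, 2 higher and 14 not called, with a median of -0.14. NGFR, a receptor of basal cells, fell by 1.12, the desmosomal cadherin DSG3 by 0.80 and TP63 by 0.24. The 2 that were higher, BNC1 (0.23) and COL17A1 (0.17, adjusted p = 0.0474), changed little. BNC1 lost its call without GFP replicate 1 (adjusted p = 0.0512), and COL17A1 in most alternatives, with each single library left out among them, with adjusted p up to 0.198.

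Genes of squamous differentiation fell in 11 of 32 cases, rose in 5 and were not called in 16, with a median of -0.51. KRT13, the keratin of the layers above the basal one in the esophagus, was at 6.81, 7.45 and 6.31 CPM in the GFP libraries and 1.75, 1.299 and 2.202 CPM in the dIDR3 libraries (-1.97, SE 0.27, adjusted p = 8.66e-05). ELF3, an epithelial factor of the ETS family, fell by 0.55, ZNF750, a differentiation factor, by 2.14, and EMP1 by 0.47. The 5 that rose were KRT80 (0.57), KLF4 (0.43), ECM1 (0.43), KRT10 (0.32) and GRHL2 (0.22). MUC16, a large membrane mucin of wet epithelia, was at 16.7, 15.5 and 16.5 CPM in the GFP libraries and 2.74, 4.23 and 2.56 CPM in the dIDR3 libraries (log2 fold change -2.35, SE 0.18, adjusted p = 6.10e-07). The dIDR3 libraries held the lowest MUC16 levels of all 12.

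Proteases of the epithelial surface and their inhibitors gave a divided picture. Among 17 kallikreins, serpins and SLPI, 7 were lower, 4 higher and 6 not called, with a median of -0.74 that ranged from -0.86 to -0.37 over the alternatives. SERPINB1, an inhibitor of neutrophil proteases, was at 245, 262 and 271 CPM in the GFP libraries and 82.7, 76.3 and 82.4 CPM in the dIDR3 libraries (-1.69, SE 0.07, edgeR adjusted p = 8.50e-10). SLPI, the secretory leukocyte protease inhibitor, fell by 1.12. KLK8 fell by 2.79 and KLK5 by 0.74, both serine proteases of stratified epithelia, and SERPINB13 by 1.26. Among the 4 that rose were SERPINE2 (0.75), an inhibitor of plasminogen activators and thrombin, with SERPINB7 (0.74) and SERPINB8 (0.66). The membrane-bound serine proteases TMPRSS4 and PRSS8 fell by 1.63 and 1.60. TRPV6, an epithelial calcium channel, went from 40.6 ± 1.24 to 10.3 ± 0.223 CPM (-1.98 on the log2 scale, adjusted p = 2.44e-09).

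Notch signalling runs from ligands of the Jagged and Delta families through the Notch receptors to HES and HEY repressors. Of 22 tested genes of the pathway, 9 were lower, 2 higher and 11 not called, with a median of -0.34. The ligands JAG1 and JAG2 fell by 0.59 and 0.34. The receptor NOTCH3 was at 40.01, 35.5 and 28.6 CPM in the GFP libraries and 13, 11.1 and 10.3 CPM in the dIDR3 libraries (-1.60, SE 0.14, edgeR adjusted p = 1.67e-06), and the receptor NOTCH2 rose by 0.30. The target HES1 was at 38.6, 40.4 and 39.1 CPM in the GFP libraries and 22.8, 22.9 and 20.95 CPM in the dIDR3 libraries (-0.83, adjusted p = 9.43e-07), and HES2 fell by 1.26. For HES1 and NOTCH3 alike, no dIDR3 library reached the level of any GFP library. DNER, an atypical Notch ligand, was the other member of the list that rose, from 1.17 ± 0.331 to 5.02 ± 0.537 CPM (2.11). Of 27 Wnt genes, 4 were higher, 4 lower and 19 not called, a share of calls (29.6%) close to the 29% of all genes, so the list as a whole did not stand out. Its called members were as follows. The ligands WNT10A and WNT4 fell by 0.99 and 1.46, the receptor LGR4 by 0.33 and the inhibitor AXIN1 by 0.29. TCF7 (0.61), WNT9A (0.54) and FZD7 (0.37) rose, and DKK1, a secreted inhibitor of Wnt signalling, was at 41.9, 44.8 and 42.2 CPM in the GFP libraries and 97.3, 91.02 and 89.1 CPM in the dIDR3 libraries (1.11, SE 0.10, adjusted p = 1.87e-06).

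Most genes of DNA replication were higher with dIDR3, and all but 1 of these rises were under 2-fold. Of 57 tested genes of G1/S and replication, 41 were higher, 1 lower and 15 not called, with a median of 0.34. MCM3, a subunit of the replicative helicase, was at 428, 420.0 and 412 CPM in the GFP libraries and 642, 622 and 612 CPM in the dIDR3 libraries (0.57, SE 0.04, edgeR adjusted p = 2.71e-07). RRM2, the regulated subunit of ribonucleotide reductase, was at 233, 241 and 240.3 CPM in the GFP libraries and 423, 411 and 409.6 CPM in the dIDR3 libraries (0.80, SE 0.06, adjusted p = 5.69e-07). In both, the lowest dIDR3 library lay above the highest GFP library. UHRF1, which maintains DNA methylation, rose by 0.73, FEN1, the flap endonuclease, by 0.66, MCM5 by 0.68 and the cyclin CCND2 by 0.54. PRIM1, a primase subunit, was the 1 member called lower (-0.22, adjusted p = 0.0464), and it lost its call in several alternatives, including without dIDR3 replicate 2 or 3 or GFP replicate 2 or 3, with adjusted p up to 0.167. Of 53 genes of G2/M and mitosis, 11 were higher, 5 lower and 37 not called, with a median of -0.03 that changed sign over the alternatives. Their share of calls, 30.2%, was close to the 29% of all genes. MKI67, the common marker of cycling cells, was at -0.02 on the log2 fold scale (adjusted p = 0.913).

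Ribosome biogenesis and splicing factors had more rises than falls. Of 59 tested genes of ribosome biogenesis, 35 were higher, 1 lower and 23 not called, with a median of 0.24. NOP56, a core protein of the particles that methylate ribosomal RNA, was at 151, 164 and 160.2 CPM in the GFP libraries and 240.1, 233 and 239 CPM in the dIDR3 libraries (0.58, SE 0.06, edgeR adjusted p = 4.19e-06). RRS1 rose by 0.64, SRM, spermidine synthase, by 0.59, NAT10 by 0.52, MRTO4 by 0.50 and EBNA1BP2 by 0.54. GNL3, a nucleolar GTPase, was called lower (-0.20, adjusted p = 0.0317), a call lost with the replicate number in the model and without dIDR3 replicate 1 or 3 or GFP replicate 1 or 3 (adjusted p up to 0.0965). The cytosolic ribosomal proteins had 12 lower, 0 higher and 68 not called of 80, with a median of -0.15. The share called lower, 15%, was close to the 13.4% of all genes. The count of lower members depended on the setting and ranged from 7 to 35 over the alternatives, and the median from -0.21 to -0.09. Of 42 splicing factors, a list not limited to SR and hnRNP genes, 18 were higher, 4 lower and 20 not called, with a median of 0.20. SRSF1, an SR protein, was at 188, 184 and 196 CPM in the GFP libraries and 314, 307 and 316 CPM in the dIDR3 libraries (0.72, SE 0.05, adjusted p = 4.69e-07), and SRSF2, HNRNPM and HNRNPH1 rose by 0.67, 0.65 and 0.52. The 4 that fell were MBNL2 (-0.81), PTBP3 (-0.26), RBFOX2 (-0.14) and ESRP1 (-0.15).

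Rises were also called among genes of AP-1 and of ERK feedback. FOSL1, a subunit of the factor AP-1, was at 31.1, 35.6 and 34.5 CPM in the GFP libraries and 94.6, 98.2 and 97.1 CPM in the dIDR3 libraries (1.52, SE 0.07, edgeR adjusted p = 9.68e-10). Its partner JUN rose by 1.13, JUND by 0.63, and the matricellular gene CYR61 from 301 ± 7.83 to 671 ± 9.28 CPM (1.16). Of 33 AP-1 and immediate early genes, 10 were higher, 0 lower and 23 not called, with a median of 0.13 (0.05 to 0.14 over the alternatives), and EGR1 (-0.08, adjusted p = 0.736) was among those not called. The share of calls, 30.3%, was close to the 29% of all genes. All of these calls were rises, against 15.6% called higher over all genes. Among the phosphatases that ERK signalling induces and that act back on it, DUSP4 was at 8.37, 6.89 and 6.22 CPM in the GFP libraries and 20.3, 22.99 and 21.4 CPM in the dIDR3 libraries (1.59, SE 0.13, adjusted p = 7.07e-07), and DUSP5 and DUSP7 rose by 0.78 and 0.50. In the list of ERK feedback genes, 9 of 21 were higher, 11 were not called and 1, DUSP16, was lower (-0.37), with a median of 0.36.

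Of 26 mesenchymal genes, 12 were higher, 2 lower and 12 not called, with a median of 0.29. THBS1, thrombospondin 1, was at 1332, 1338 and 1317 CPM in the GFP libraries and 2266, 2367 and 2251 CPM in the dIDR3 libraries (0.79, SE 0.04, edgeR adjusted p = 4.50e-09). The receptor tyrosine kinase AXL rose by 0.71, the matrix protein TNC by 0.59, the repressor SNAI2 by 0.68, TPM2, a tropomyosin, by 1.34 and VIM, vimentin, from 2.48 ± 0.283 to 6.203 ± 0.587 CPM (1.32). LOXL4 (-1.06) and COL6A1 (-0.78) were the 2 that fell. TGM2, a transglutaminase that crosslinks proteins, was at 203, 193 and 202 CPM in the GFP libraries and 522, 522 and 488 CPM in the dIDR3 libraries (1.36, SE 0.07, adjusted p = 3.60e-09), and RHOB, a small GTPase, went from 12.6 ± 0.179 to 31.9 ± 0.613 CPM (1.33). Both groups of libraries were well separated at these genes. TENM2, an adhesion protein of the teneurin family, was at 12.1, 11.9 and 13.1 CPM in the GFP libraries and 55.7, 58.3 and 50.1 CPM in the dIDR3 libraries (log2 fold change 2.15, SE 0.10, adjusted p = 2.44e-09). The metalloproteinase MMP24 (2.33) and the adhesion molecules MCAM (1.95) and JAM3 (1.52) rose from means of 1.66 to 2.25 CPM. Of 35 epithelial junction genes, 10 were lower, 5 higher and 20 not called, beside 13.4% lower and 15.6% higher over all genes.

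Other large changes fell outside these lists. Among the rises were CPED1, a gene of little known function, from 13.3 ± 1.24 to 43.6 ± 3.06 CPM (1.71), the amino acid transporter SLC43A2 (1.49), the myelin-type membrane protein PLLP (1.46) and EVI2A (1.31). Among the falls were the nucleotide receptor P2RY6, from 6.88 ± 0.243 to 1.898 ± 0.257 CPM (-1.86), and VSNL1, a calcium sensor, from 13.5 ± 0.487 to 3.97 ± 0.555 CPM (-1.76). At each of these 6 genes the GFP and dIDR3 libraries did not overlap.

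Of 14 tested members of the AP-2 family and its partners, TFAP2B included, 4 were higher, 2 lower and 8 not called. Over all genes 15.6% were called higher and 13.4% lower. The 2 members that fell were TFAP2A and TFAP2E, which went from 0.909 ± 0.340 to 0.325 ± 0.111 CPM (-1.48, edgeR adjusted p = 0.0350, up to 0.165 over the alternatives). CITED2, a coactivator of AP-2 factors, was at 50.7, 52.3 and 55.4 CPM in the GFP libraries and 88.6, 85.02 and 85.5 CPM in the dIDR3 libraries (0.71, SE 0.05, edgeR adjusted p = 4.69e-07). CREBBP, an acetyltransferase that binds CITED2, rose by 0.41. Of 35 genes described as AP-2 targets, 13 were higher, 5 lower and 17 not called, with a median of 0.11 against 0.57 for WT over GFP. The number that rose ranged from 6 to 13 over the alternatives. FOXM1, a factor of the cell cycle, and IGF1R, the receptor of insulin-like growth factor 1, rose by 0.65 and 0.44, and KRT14, ERBB3 (-0.37), MUC1 (-0.68), THBD (-0.46) and CYP1B1 (-0.84) were the 5 that fell. The palindrome GCCNNNGGC, a core AP-2 site that reads the same on both strands, was found in 19.8% of all promoters and in 27.1% of the 10200 promoters of tested genes. It stood in 28.9% of promoters of genes called higher and in 25.8% of those of genes called lower. These shares are descriptions of windows of 250 bases before the start and say nothing of binding elsewhere.

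**Figure D3:**
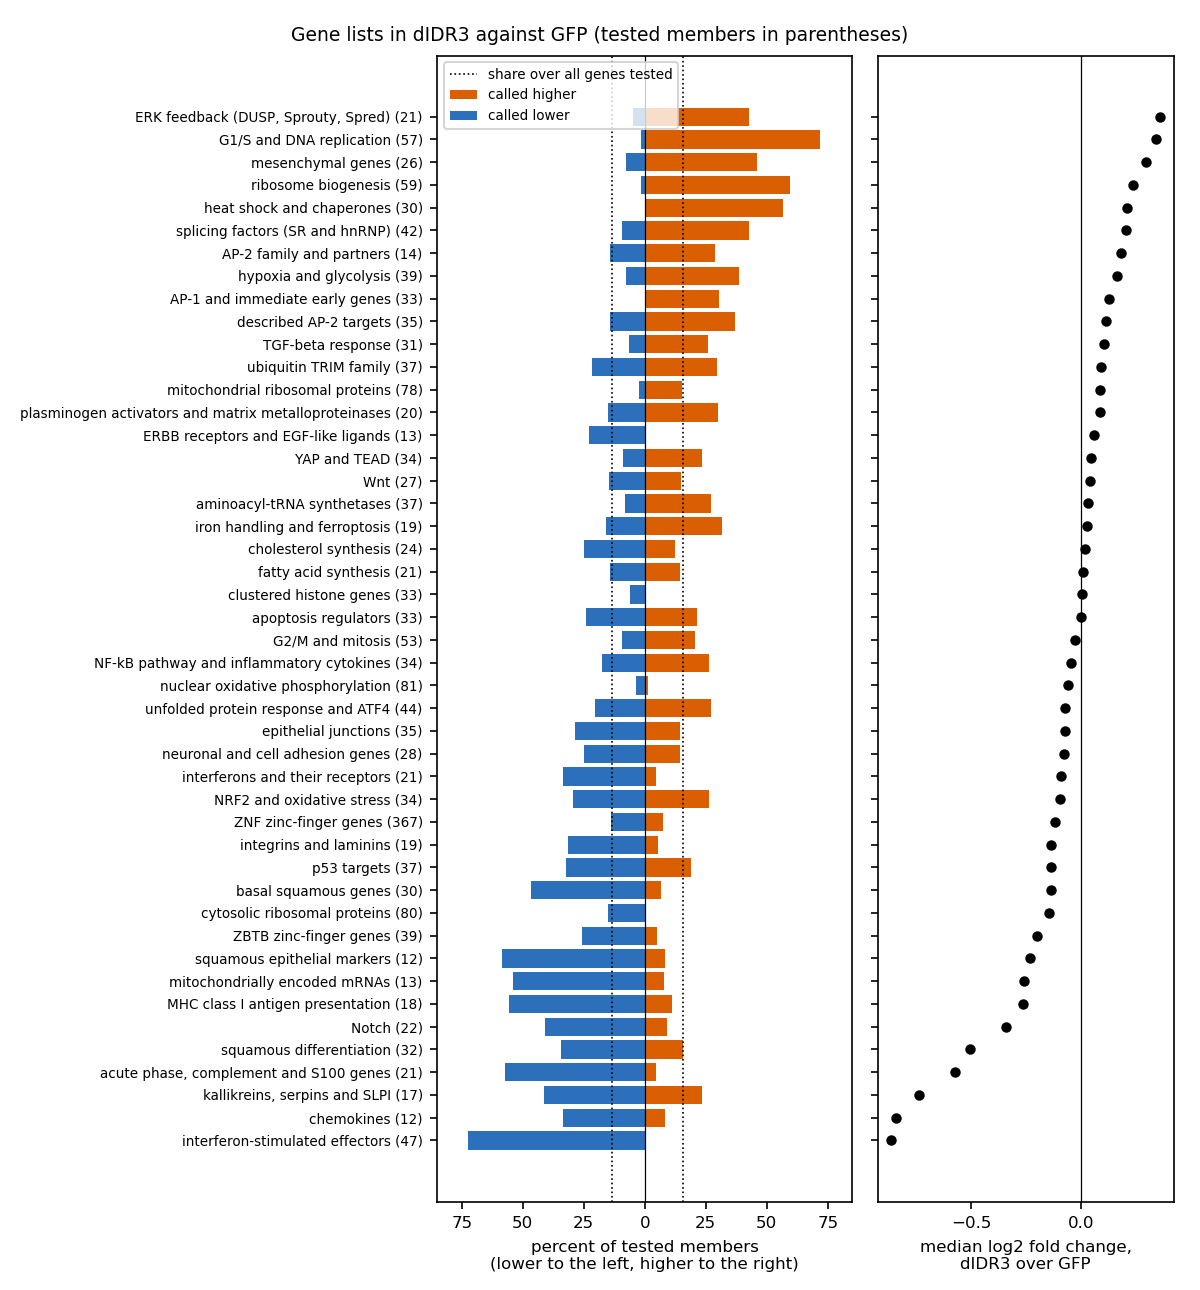
Bars give the percent of the tested members of each list called higher (orange, right) or lower (blue, left) in dIDR3 against GFP, with dotted lines at the 15.6% and 13.4% of all genes tested. Lists with at least 12 tested members are shown. The points on the right give the median log2 fold change of each of them, which runs from -0.87 for interferon-stimulated effectors to 0.36 for ERK feedback genes.

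The direct comparisons with the other constructs show where dIDR3 differed from them. Against WT, 7730 genes were called (52.3%), 4025 higher (27.2%) and 3705 lower (25%) in dIDR3. Against Mut_IDR3, 1594 were called (10.8%), 775 higher (5.24%) and 819 lower (5.54%). With upper-quartile scaling the second comparison had 570 higher and 1074 lower. Against the GFP control, dIDR3 had 4294 calls, Mut_IDR3 3114 (21.1%) and WT 8118 (54.9%), with the GFP libraries shared by all 3. TFAP2B itself did not pass the test between dIDR3 and Mut_IDR3 (log2 fold change 0.01, adjusted p = 0.989).

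At 755 genes (5.1%) dIDR3 stood apart, meaning that it was called in 1 direction against GFP, WT and Mut_IDR3 and that its 3 libraries lay outside all 9 others. Of these 358 were higher (2.42%) and 397 lower (2.68%), and with upper-quartile scaling 271 and 497. Among the genes that stood apart as higher was HSPA8, at 1269 ± 133 CPM with WT and 1502 ± 35.6 CPM with Mut_IDR3 against 2611 ± 63.8 CPM with dIDR3. Its log2 fold change was 0.80 against Mut_IDR3 (edgeR adjusted p = 3.08e-06) and 1.04 against WT (adjusted p = 6.21e-09). DKK1 was at 36.9 ± 6.403 CPM with WT and 42.04 ± 2.84 CPM with Mut_IDR3, against 42.97 ± 1.61 CPM with GFP, and no library outside dIDR3 reached the lowest dIDR3 value of 89.1 CPM. ZNF703, a zinc finger repressor, and ACSS1, a mitochondrial acetyl-CoA synthetase, also stood apart, with log2 fold changes of 1.16 and 1.08 against Mut_IDR3. Of the heat shock list 9 members stood apart as higher, of G1/S genes 18, of ribosome biogenesis 18 and of splicing factors 10. Among the 47 tested interferon-stimulated effectors 16 stood apart as lower. These include members expressed mainly with WT and at low levels in the other groups. HERC5 was at 36.5 CPM with WT and 0.719 CPM with GFP, and DHX58 had 0 counts in dIDR3. How many of the 16 were tested only because of their level with WT was not examined.

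Genes that stood apart as lower included ones that WT raised and ones that it lowered. RSAD2, the antiviral viperin, was at 322 ± 28.9 CPM (WT), 2.03 ± 0.365 CPM (GFP), 1.81 ± 0.418 CPM (Mut_IDR3) and 0.681 ± 0.243 CPM (dIDR3). APOL1 and APOL3, apolipoproteins that interferon induces, fell below Mut_IDR3 by 1.25 and 1.74 on the log2 scale, to 0.567 and 0.244 CPM. BST2, which tethers budding viruses, fell below Mut_IDR3 by 1.17 (0.319 against 0.721 CPM, edgeR adjusted p = 0.0443). GRHL3, a driver of epidermal differentiation, also fell by 1.17 (0.488 ± 0.271 against 1.11 ± 0.295 CPM, edgeR adjusted p = 0.0406). The levels of BST2 and GRHL3 were low and their adjusted p close to the threshold. MUC16 and TRPV6 were lower in every construct than in GFP and lowest in dIDR3, at 14.97 ± 1.54 CPM (WT), 29.8 ± 2.63 CPM (Mut_IDR3) and 10.3 ± 0.223 CPM (dIDR3) for TRPV6. KRT14 showed a different order, at 56.2 ± 2.66 CPM (Mut_IDR3), 46.6 ± 1.65 CPM (dIDR3) and 806 ± 68.1 CPM (WT). KRT15 was lowest with WT (38.2 ± 2.19 CPM) and at 433 ± 11.1 CPM with Mut_IDR3 (log2 fold change against GFP -0.10, adjusted p = 0.236). In the direct test, 26 of 33 AP-1 and immediate early genes and 17 of 21 ERK feedback genes were called lower in dIDR3 than in WT, and 1 of each list higher. Over all genes 25% were called lower and 27.2% higher in that test. FOSL1 was at 198 ± 13.8 CPM with WT, a log2 difference of -1.04 for dIDR3 over WT (adjusted p = 6.77e-09).

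**Figure D4:**
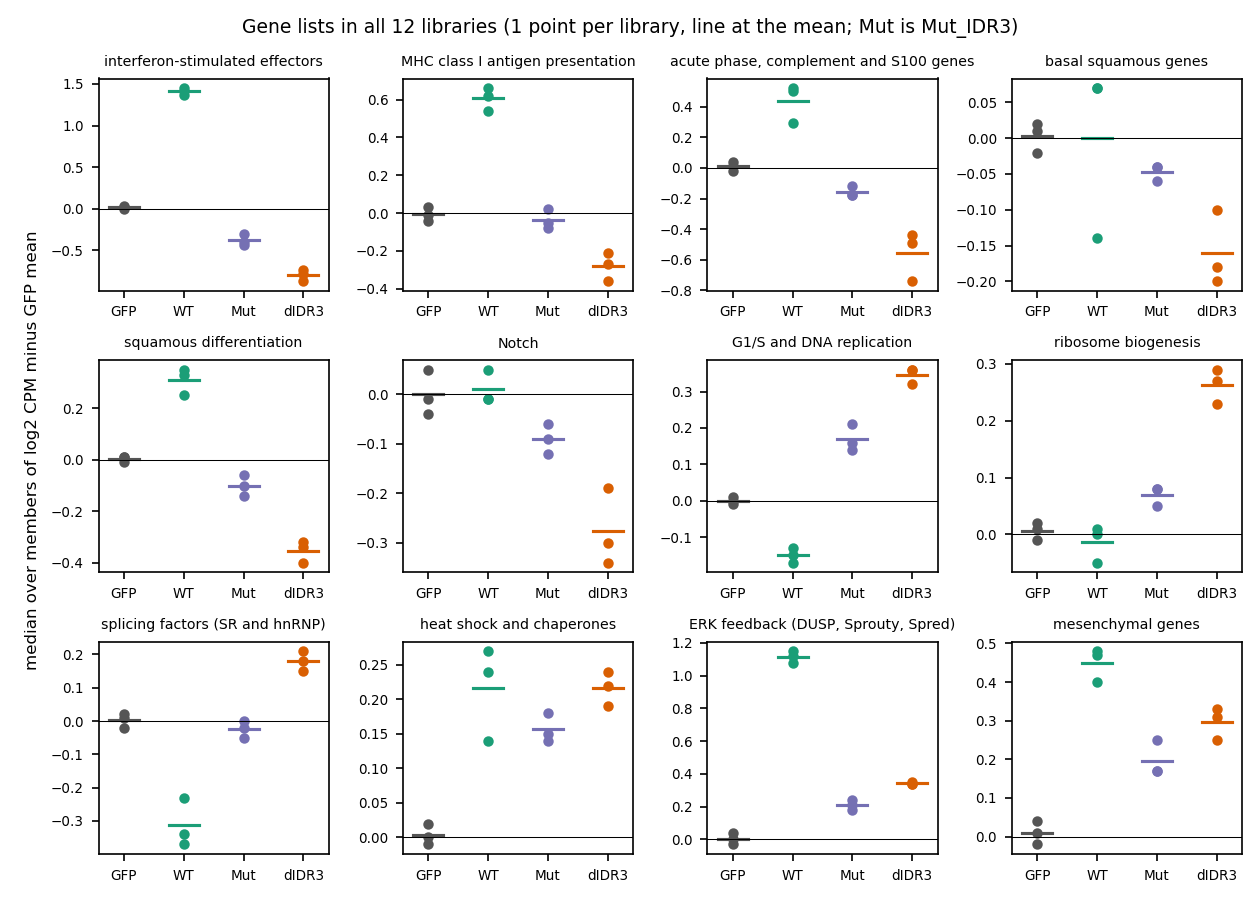
Each panel shows a gene list, with 1 point per library and a line at the mean of each group, and the y axis gives the median over the members of log2 CPM minus the GFP mean. The dIDR3 libraries are the lowest of the 12 for interferon-stimulated effectors and the highest for G1/S genes, ribosome biogenesis and splicing factors, while ERK feedback and mesenchymal genes are highest with WT.

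**Figure D5:**
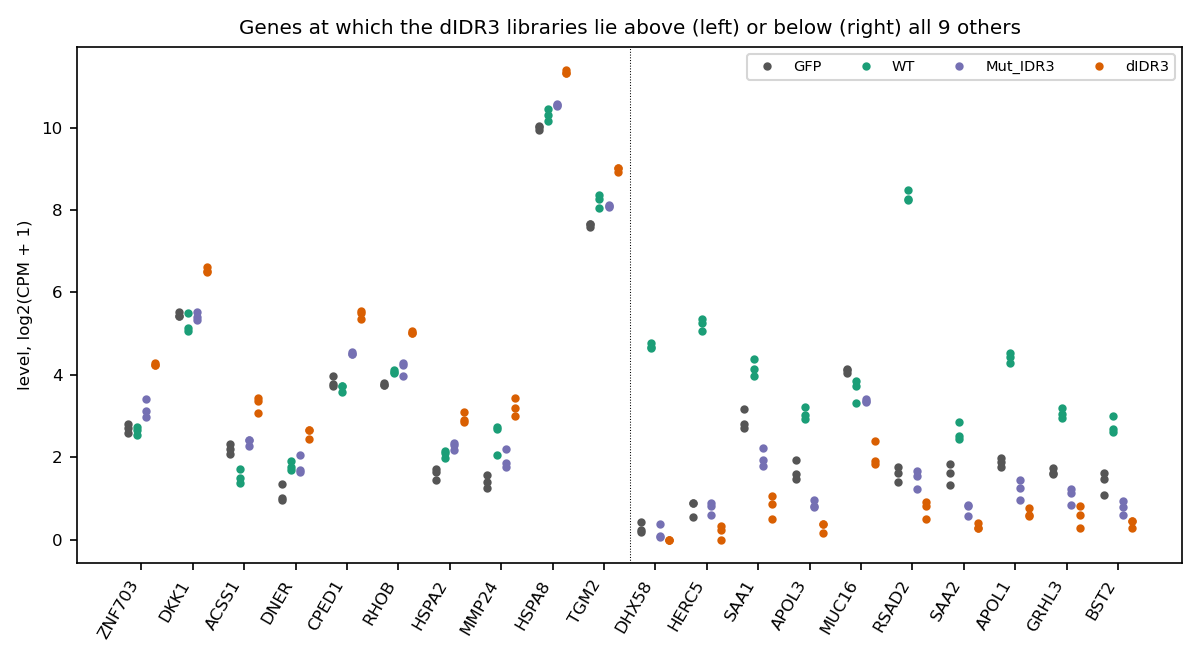
The 20 genes at which dIDR3 stood apart by the largest margin are shown in all 12 libraries, 1 point each, as log2(CPM + 1). On the left the dIDR3 points are the highest for HSPA8, DKK1 and TGM2, and on the right they are the lowest for SAA1, MUC16 and RSAD2.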

How the data were processed

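RNA-seq counts per gene were used as deposited. Per the submitters' processing notes, the tools were HISAT2, StringTie and Trim Galore, with the build GRCh38/hg38. Which program counted reads, on which annotation and strand, is not given in the sources used here, so near-identical copies and overlapping genes are uncertain. Per the labels' protocols, 1 µg of total RNA went into each library.

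Of 24302 features in the table the authors deposited, 14792 passed filterByExpr and were tested with edgeR 4.0.16 (TMM scaling, quasi-likelihood F test over 4 groups of 3 libraries, 8 residual degrees of freedom) in R 4.3.3. P-values were adjusted by Benjamini-Hochberg over all genes tested, and called genes had adjusted p under 0.05. An exact test of 3 against 3 cannot go below p = 0.1. On simulated counts edgeR called 74.6%, 91% and 100% of genes changed 1.5, 2 and 4-fold in dIDR3 against GFP, and 9 unchanged genes of the 14522 genes run. The simulation gave all genes of a level the same spread and changed 200 genes, none of them at the lowest levels, in dIDR3 alone. In the data 29% of genes were called and other groups differed as well, so these rates may not hold for the data. Alternatives were other scalings and filters, DESeq2 1.42.0, limma-voom (limma 3.58.1), the 2 groups alone, a replicate block, GC or length trends removed, stricter thresholds, Ensembl genes alone and single libraries left out.

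The members and the 51 gene lists were chosen with earlier results of these data known. Lists count features by identifier, and 15 symbols occur more than once. Named genes are TFAP2B, TFAP2A, TFAP2C and ZNF131, genes from the 20 largest rises and 20 largest falls (libraries not overlapping, established symbol, a mean of 5 CPM or more in the higher group), the 6 or fewer called members with the smallest adjusted p in each list, members against the direction of their list, and 10 genes in each direction that stood apart by the largest smallest change. Not every gene that met the rule is named, and some are not reported here. Members that were not called, and a few called ones such as DSG3, TP63, IL1B, DHX58, CXCL10, SERPINB8, NOTCH2 and VEGFA, were chosen after their values were seen. Promoters are RefSeq sequences of 250 bases, matched by gene identifier, or by symbol where that failed, for 10200 of the tested genes.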

Additional observations from a re-analysis of the deposited data

How the results depend on the processing

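The number of genes called in dIDR3 against GFP (4294) was 2506 at an adjusted p under 0.01 and 443 with a minimum of 2-fold. It ranged from 3099 to 3564 when 1 library of either group was left out, and from 3984 to 4956 under the other scalings, filters and tools, of which DESeq2 called 4721 and limma-voom 4525. Against WT (7730) it was 1359 with a minimum of 2-fold and 7245 with the GC trend removed. In that last setting 71.8% of the 7730 calls were still made in the same direction, and 72 were made in the opposite one. The fold change against WT had a Spearman correlation of -0.44 with the GC content of the transcript. Against Mut_IDR3 (1594) the number called was 596 at an adjusted p under 0.01, 132 with a minimum of 2-fold and 819 to 1143 without single libraries. The 755 genes at which dIDR3 stood apart became 1160 with the GC trend removed, 298 at an adjusted p under 0.01, 51 with a minimum of 2-fold and 442 to 995 without single libraries, and the cause was not tested. Libraries of WT and Mut_IDR3 were left out as alternatives added after seeing the data. With the replicate number as a block, the counts were 3984 against GFP, 7471 against WT, 1206 against Mut_IDR3 and 597 apart. The labels give shared replicate numbers but no shared culture or day, and the deviations of GFP and dIDR3 libraries of the same number had correlations of 0.029, 0.068 and -0.061, so that the numbers were not taken as pairs. Of the 189 genes named, 164 kept their direction and their side of the threshold in dIDR3 against GFP in every alternative. Over these 189 genes and the alternatives, 123 values of that comparison were no longer past the threshold, 6 newly past it and 0 reversed. The differences of the named genes from WT and Mut_IDR3 were not followed gene by gene in this way. Putting members without counts in 1 group at their bound moved the median of 1 of the 6 lists with such members, squamous differentiation, from -0.51 to -0.41. For genes at 0 counts in a group, depth allows no fold beyond that bound.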

Other observations

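Lists of metabolism and stress showed mixed or small changes with dIDR3 against GFP. In the unfolded protein response and ATF4 list 12 of 44 genes were higher, 9 lower and 23 not called, with a median of -0.07. The chaperone HSPA5 went from 604 ± 6.42 to 845 ± 17.5 CPM (0.48 on the log2 scale, edgeR adjusted p = 5.11e-06), and SDF2L1 (0.71), HERPUD1 (0.44) and XBP1 (0.37) rose with it. Enzymes of amino acid supply that ATF4 controls fell in the same list, with ASNS at -0.27, CTH at -0.56 and the cystine transporter SLC7A11 at -0.65. Of 39 genes of hypoxia and glycolysis 15 were higher, 3 lower and 21 not called, with a median of 0.16. ALDOC (1.05), ADM (0.67), PKM (0.45) and CA9 (0.90) were among those that rose, and BHLHE40 (-0.28), VEGFA (-0.29) and MXI1 (-0.29) fell. The call for VEGFA was lost in several alternatives, with adjusted p up to 0.223 and without dIDR3 replicate 1 or 2 or GFP replicate 2 or 3 among them, and that for MXI1 reached adjusted p = 0.112. TFRC, the transferrin receptor, was at 227, 236 and 246 CPM in the GFP libraries and 337, 349.7 and 321 CPM in the dIDR3 libraries (0.51, adjusted p = 6.63e-06). It was lower with WT, at 96.1 ± 1.28 CPM.

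The 13 mRNAs encoded by mitochondria did not move together. MT-ND1 rose by 0.51 on the log2 scale, 7 fell, such as MT-CO2 (-0.79) and MT-ND4 (-0.70), and 5 were not called, MT-CYB (-0.03, adjusted p = 0.722) among them. The nuclear genes of oxidative phosphorylation gave few calls, with 1 higher, 3 lower and 77 not called of 81. Of 19 integrin and laminin chains 6 were lower and 1 higher, a share of calls of 36.8% beside the 29% of all genes. ITGA2 was the one with the lowest adjusted p, at 32.2, 34.3 and 32.7 CPM in the GFP libraries and 15.7, 16.2 and 18.4 CPM in the dIDR3 libraries (-0.98, adjusted p = 3.48e-06). SOX9, a factor of neural crest and epithelial progenitors, went from 12.4 ± 1.23 to 20.6 ± 1.296 CPM (0.73), and MSX1 and MSX2 rose by 0.59 and 0.56. Of 367 ZNF genes 51 were lower and 27 higher, a share of calls below the 29% of all genes. Of 39 ZBTB genes 10 were lower and 2 higher, a share (30.8%) close to the 29%.

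Outside the named genes, an unnamed feature of the table, NewGene_7925, went from 5.23 ± 0.501 to 121 ± 7.12 CPM (4.54 on the log2 scale, adjusted p = 1.32e-12) and was chosen for mention after its values were seen.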
